A study of Mus musculus with 12 samples.

Results

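The genes described here are 10 mouse genes whose signal was higher in podocyte cultures treated with tamoxifen than in mock-treated cultures: Galr2, Cnr1, Adgrg2, Adipoq, Fndc1, Pitpnm3, Ptprt, Pde2a, Hs3st6 and Megf10. They were chosen for that difference, so their culture values are a description and carry no test. They are 10 of 15226 named genes tested, read by 13 of 39429 distinct probes on single-colour Agilent arrays. The only comparison of treated with untreated samples that did not choose them is the one in glomeruli, the capillary tufts of the kidney.

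The study removed 2 forkhead transcription factor genes, Foxc1 and Foxc2, from podocytes with a Cre recombinase that tamoxifen activates. There were 12 arrays in 6 groups of 2. In every group, controls included, the labels give an inducible Cre, which the series' design text names CreERT2, with Foxc1flox/flox and a second floxed gene that the labels number differently from sample to sample and that is taken here as Foxc2flox/flox, after the series title. The groups were glomeruli of tamoxifen-treated mice, glomeruli of control mice that received no agent, tamoxifen-treated cultures at day 4, mock-treated cultures at day 4, tamoxifen-treated cultures at day 7 and mock-treated cultures at day 7. Treated mice were 8 weeks old when they received intraperitoneal tamoxifen, over 3 days, and their glomeruli were taken on day 7. Cultures were expanded from glomeruli of adult mice, and the design text names the agent added to them as the active form of tamoxifen. The promoter that drives the Cre is not given in the sources used here, and each treated sample received the agent and the recombination together, so the effects of these cannot be told apart. Labels name separate mice for the glomeruli but do not say whether the cultures are separate, so the p-values below measure only the spread between these samples, which may be technical.

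Podocytes are epithelial cells whose foot processes enwrap the capillaries of the glomerulus and carry the filtration slits. The 10 genes belong to no single pathway. Galr2, Cnr1 and Adgrg2 are G protein-coupled receptors, which sense ligands outside the cell and act through heterotrimeric G proteins. Adipoq and Fndc1 encode secreted proteins, Pde2a, Hs3st6 and Ptprt encode enzymes of signalling and of the cell surface, Pitpnm3 belongs to a lipid transfer family, and Megf10 is an engulfment receptor. Adiponectin, the product of Adipoq, is known as a hormone of fat cells, and the receptors for galanin and cannabinoids are best known from the nervous system.

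For both target genes both treated arrays lay below both untreated arrays in glomeruli and on both culture days. Foxc2 had log2 levels of -1.12 and -0.19 in tamoxifen glomeruli, against 2.10 and 2.24 in control glomeruli, a difference of -2.82 (limma adjusted p = 0.037, a call lost in 9 of 12 fits that left out 1 array). Here and below a log2 level is log2 of a probe's signal divided by that array's 75th percentile of signal, so 0 is the 75th percentile, and a level belongs to its own probe and is not set against another probe's. In treated cultures Foxc2 was not well above background, the scanner software's call that a spot exceeds its local background, on any of the 4 arrays, and was at least 139-fold lower than in mock cultures at day 4 and at least 151-fold lower at day 7 (limma adjusted p = 0.0019 and 7e-04). Foxc1 differed by -1.86 in glomeruli, -7.41 at day 4 and -9.20 at day 7, with limma adjusted p of 0.62, 0.14 and 0.057. The 75th percentile of signal was between 506.8 and 760.0 units, 57.9 to 63.4% of spots were well above background, and the 2 arrays of a group correlated at 0.983 to 0.99 across genes. All 12 podocyte markers checked were well above background on both arrays of every group. Their summed level, the sum of signal over the array's 75th percentile, was 88.4 to 104 in cultures and 307 to 609 in glomeruli. Mesangial and mural markers, 10 of 10 well above background in every group, summed to 435 to 566 in cultures and 45.2 to 86.4 in glomeruli. Fibroblast markers summed to 70.3 to 187 in cultures and 19.2 to 52.0 in glomeruli, with Lum and Dpt below background in every group. The 4 glomerular arrays share slide 1, the 4 day 4 arrays slide 2 and the 4 day 7 arrays slide 3, so each comparison with tamoxifen lies within 1 slide, while tissue and slide, and day and slide, cannot be told apart.

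RefSeq promoter windows on GRCm38.p6, each of 300 bases ending downstream of a transcript start, were matched for 8 of the 10 genes, with 14 windows in all. For the 10 genes, windows on a single chromosome were left out of the search, but not out of the shares over all windows. No window was used for Hs3st6 or Megf10. The 4 windows below are shown because they hold every motif match found (Fndc1 and Cnr1) or as examples from genes near or below background in mock cultures (Adipoq and Galr2). Ptprt and Pitpnm3 were also near or below background there, and their windows are not shown. They lie at chr17:7827253-7827552 on the minus strand for Fndc1, at chr4:33924014-33924313 on the plus strand for the first Cnr1 window, at chr16:23146286-23146585 on the plus strand for Adipoq and at chr11:116280689-116280988 on the plus strand for Galr2. Capitals mark matches to the motifs searched, and all other bases are in lower case.
Fndc1: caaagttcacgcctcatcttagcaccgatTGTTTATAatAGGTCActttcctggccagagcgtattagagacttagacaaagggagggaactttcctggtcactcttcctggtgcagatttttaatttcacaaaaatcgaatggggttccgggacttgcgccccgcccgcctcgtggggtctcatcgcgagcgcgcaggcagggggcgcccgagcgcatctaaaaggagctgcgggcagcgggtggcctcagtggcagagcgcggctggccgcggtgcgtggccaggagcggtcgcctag
Cnr1: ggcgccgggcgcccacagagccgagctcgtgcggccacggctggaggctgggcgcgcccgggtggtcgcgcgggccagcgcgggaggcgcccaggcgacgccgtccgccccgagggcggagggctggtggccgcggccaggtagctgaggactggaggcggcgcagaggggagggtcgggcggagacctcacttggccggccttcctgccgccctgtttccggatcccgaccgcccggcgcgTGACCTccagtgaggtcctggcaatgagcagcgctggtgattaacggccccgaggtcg
Adipoq: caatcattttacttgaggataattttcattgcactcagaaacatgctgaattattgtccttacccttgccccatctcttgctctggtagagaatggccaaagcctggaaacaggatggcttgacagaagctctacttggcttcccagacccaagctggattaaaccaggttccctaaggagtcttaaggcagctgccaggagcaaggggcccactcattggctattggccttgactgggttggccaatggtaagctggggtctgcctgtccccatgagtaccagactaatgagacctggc
Galr2: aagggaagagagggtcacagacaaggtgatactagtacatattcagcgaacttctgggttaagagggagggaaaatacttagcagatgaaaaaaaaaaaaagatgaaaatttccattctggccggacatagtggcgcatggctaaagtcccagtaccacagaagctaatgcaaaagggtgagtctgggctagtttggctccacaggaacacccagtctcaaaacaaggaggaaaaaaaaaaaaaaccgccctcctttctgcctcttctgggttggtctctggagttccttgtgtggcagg
Motifs were searched on both strands. The forkhead heptamer GTAAACA was in 0 of the 14 windows, against 3.65% of all 32851 RefSeq windows of this length. Its shorter core TAAACA was in 1, that of Fndc1, against 13.4% of all windows, and there it overlaps a TATAAA match (1 of 14 windows, against 13.6%). The single arm of the estrogen response element, AGGTCA, was in 2 windows, those of Fndc1 and Cnr1, against 16.3% of all windows, and the full palindromic element was in 0, against 0.07%. The windows also differed in CG dinucleotides: Adipoq held 0 and Galr2 held 4, while Fndc1 held 25 and the first Cnr1 window 40, with a median of 7 over all windows. Of the windows not shown, that of Ptprt held 46, that of Pitpnm3 38 and the other Cnr1 windows 33 and 5. The genes near or below background in mock cultures thus had both few and many. These matches describe letters in a window and nothing more.

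In cultures, both tamoxifen arrays lay above both mock arrays in all 10 genes at day 4 and again at day 7. Over all genes this held for 29.2% at day 4, for 22.4% at day 7 and for 16.2% on both days, but since the 10 genes were chosen for it, nothing is read from their count. All 4 treated arrays were also above all 4 mock arrays in each of the 10, against 11.1% of all genes. The median difference, tamoxifen minus mock, was 2.57 log2 units at day 4 (1.78 to 3.17) and 2.62 at day 7 (2.26 to 3.91), with medians over all genes of 0.02 and 0.00; genes below background in mock cultures enter these medians at their measured values. Every one of the 10 was well above background on both treated arrays on both days. On the mock side 5 genes were well above background on both arrays on each day. At day 4 another 2 were so on 1 mock array and 3 on none (Cnr1, Adipoq and Ptprt), and at day 7 another 4 were so on 1 and only Adipoq on none. In bulk samples such as these, fewer expressing cells and less RNA per cell cannot be told apart.

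**Figure D1:**
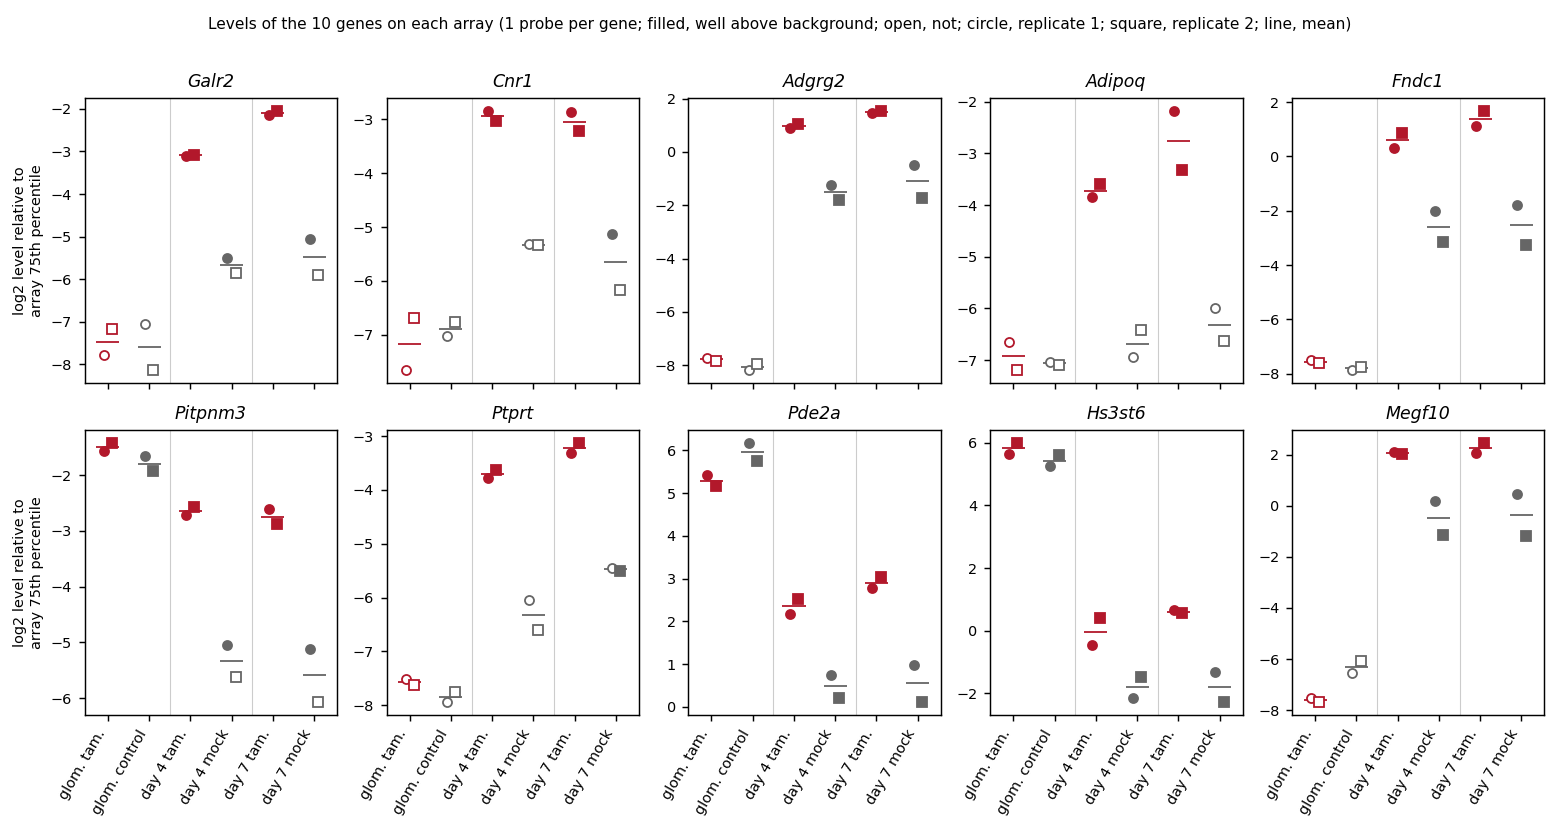
Log2 level of the 10 genes (vertical axis, relative to the array's 75th percentile, own scale per panel) on each of the 12 arrays by group, with filled symbols well above background, open symbols not, circles for replicate 1, squares for replicate 2 and lines for group means. In every panel both tamoxifen culture arrays lie above both mock arrays, and 7 of the 10 genes have open symbols on all 4 glomerular arrays.

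Galr2 encodes a receptor for the neuropeptide galanin. Its log2 levels were -3.10 and -3.07 in tamoxifen cultures at day 4, against -5.49 and -5.86 in mock cultures. On day 7 the levels were -2.15 and -2.05 in tamoxifen cultures, against -5.05 and -5.91 in mock cultures. Mock replicate 2 was not well above background on either day, but it enters the mock mean, so the folds below rest in part on an array near background. The difference was 2.59 at day 4 (limma SE 0.40, 6.01-fold) and 3.38 at day 7 (SE 0.40, 10.4-fold). In glomeruli Galr2 was not well above background on any array, at -7.77 and -7.18 with tamoxifen and -7.04 and -8.13 in controls. Treated cultures were at least 7.57-fold above control glomeruli at day 4 and at least 15.0-fold above at day 7.

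Cnr1 encodes the cannabinoid receptor CB1. Tamoxifen cultures had -2.85 and -3.03 at day 4, against -5.32 and -5.33 in mock cultures, neither of which was well above background. At day 7 tamoxifen cultures had -2.86 and -3.22, against -5.13 and -6.16 in mock cultures, the last of them not well above background. The treated mean differed by -0.10 between day 7 and day 4. The gene was at least 5.22-fold higher with tamoxifen at day 4 and 6.09-fold higher at day 7 (difference 2.61, SE 0.38). All 4 glomerular arrays were below background, between -7.65 and -6.69.

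Adgrg2, an adhesion G protein-coupled receptor best known from the epididymis, was brighter than its own background in every culture. Its levels were 0.91 and 1.05 in tamoxifen cultures at day 4, against -1.22 and -1.81 in mock cultures. Day 7 levels were 1.48 and 1.53 with tamoxifen, against -0.50 and -1.72 with mock. The treated arrays lay 0.14 apart at day 4 and 0.05 apart at day 7, while the mock arrays lay 0.59 and 1.22 apart. Differences were 2.50 (5.65-fold) and 2.61 (6.10-fold), with an SE of 0.36. On all 4 glomerular arrays the probe was not well above background, between -8.18 and -7.73, and mock cultures were at least 22.5-fold above control glomeruli at day 4 and at least 29.9-fold above at day 7.

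Adipoq encodes the hormone adiponectin and was the only one of the 10 that no mock array of either day showed well above background. Tamoxifen cultures had -3.85 and -3.59 at day 4, against -6.94 and -6.42 in mock cultures. At day 7 tamoxifen cultures had -2.18 and -3.33, against -5.99 and -6.63 in mock cultures. The 2 treated arrays of day 7 differed by 1.15, the widest gap between treated arrays among the 10 genes. Against the lowest signal that counted as well above background on the mock arrays, Adipoq was at least 3.85-fold higher with tamoxifen at day 4 and at least 7.94-fold higher at day 7. These bounds hold for the processed signal: with normexp background correction the day 7 difference of Adipoq was 0.90, that of Cnr1 0.77, that of Ptprt 0.73 and that of Pitpnm3 1.00. Adipoq was below background in glomeruli too, between -7.19 and -6.65.

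Fndc1 is a secreted protein with fibronectin type III domains. On the probe used here it had the largest measured difference of the 10 on both days, but the mean over the probes of the gene gave 2.01 at day 4 and 2.00 at day 7. That probe had levels of 0.31 and 0.87 in tamoxifen cultures at day 4, against -2.02 and -3.16 in mock cultures. At day 7 it had 1.12 and 1.66 with tamoxifen, against -1.78 and -3.25 with mock. All 8 culture arrays were well above background and the groups did not overlap. The difference was 3.17 at day 4 (SE 0.52, 9.03-fold) and 3.91 at day 7 (SE 0.52, 15.0-fold), which placed Fndc1 at rank 8 and rank 4 of 15226 genes by size of rise. In glomeruli the probe was below background on all 4 arrays, between -7.86 and -7.49, and mock cultures were at least 10.7-fold above control glomeruli at day 4 and at least 11.3-fold above at day 7.

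Fndc1 has 2 further probes, and they disagree with the first on the size of the difference and on glomeruli. One was well above background on all 12 arrays, the 4 glomerular arrays included, where its levels were -4.38 and -4.95 with tamoxifen and -4.60 and -5.14 in controls. This probe had -3.02 and -3.17 in tamoxifen cultures at day 4, against -4.52 and -5.04 in mock cultures, a difference of 1.68. At day 7 it had -2.31 and -2.70 with tamoxifen, against -2.81 and -4.89 with mock, a difference of 1.34. On this probe mock cultures were 1.07-fold above control glomeruli at day 4 and 2.03-fold above at day 7, with overlapping arrays. The treated arrays were the higher ones on both days, as for the first probe, but by a smaller margin. The remaining probe was well above background on 1 treated array at each day and on no mock or glomerular array. Whether glomeruli hold Fndc1 RNA therefore depends on the probe, and which transcripts each probe reads was not tested.

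Pde2a encodes a phosphodiesterase that cyclic GMP stimulates and that breaks down cyclic AMP and cyclic GMP. Tamoxifen cultures had 2.18 and 2.53 at day 4, against 0.74 and 0.22 in mock cultures. After 7 days tamoxifen cultures had 2.78 and 3.04, against 0.99 and 0.12 in mock cultures. The differences were 1.87 (3.66-fold) and 2.36 (5.12-fold), with an SE of 0.31. In glomeruli Pde2a was far brighter on the same probe, with 5.41 and 5.16 with tamoxifen and 6.18 and 5.76 in controls. Control glomeruli were 12.3-fold above tamoxifen cultures at day 4 and 8.33-fold above them at day 7, and 44.9-fold and 42.7-fold above the mock cultures of those days.

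Hs3st6 encodes a heparan sulfate 3-O-sulfotransferase, an enzyme that modifies the sugar chains of cell surface and matrix proteoglycans. Tamoxifen cultures had -0.45 and 0.39 at day 4, against -2.14 and -1.48 in mock cultures. Treated arrays of day 7 had 0.66 and 0.56, against -1.33 and -2.27 in mock cultures. Hs3st6 had the smallest measured day 4 difference of the 10, at 1.78 (SE 0.39, 3.43-fold), and 2.41 at day 7 (5.31-fold). Its glomerular levels were 5.64 and 5.99 with tamoxifen and 5.25 and 5.60 in controls, so control glomeruli were 43.8-fold above treated cultures at day 4 and 28.1-fold above at day 7. Against mock cultures they were 151-fold and 149-fold higher on the same days.

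Ptprt encodes a receptor-type protein tyrosine phosphatase of the R2B group, whose members bind to themselves between cells. Tamoxifen cultures had -3.78 and -3.63 at day 4, against -6.04 and -6.61 in mock cultures, both below background. On day 7 tamoxifen cultures had -3.31 and -3.13, against -5.44 and -5.51 in mock cultures, 1 of the 2 well above background. Ptprt was at least 3.89-fold higher with tamoxifen at day 4 and 4.78-fold higher at day 7 (difference 2.26, SE 0.19). It was below background on all 4 glomerular arrays, and its other probe was below background on all 12 arrays.

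Pitpnm3 belongs to the membrane-associated phosphatidylinositol transfer protein family. Tamoxifen cultures had -2.71 and -2.57 at day 4, against -5.04 and -5.61 in mock cultures. At day 7 they had -2.60 and -2.88, against -5.12 and -6.07 in mock cultures, and mock replicate 2 was not well above background on either day. Differences were 2.69 (6.45-fold) and 2.85 (7.21-fold), with an SE of 0.31. Glomeruli had -1.57 and -1.42 with tamoxifen and -1.66 and -1.93 in controls. Control glomeruli were 1.79-fold above treated cultures at day 4 and 1.93-fold above at day 7. They were 11.6-fold and 13.9-fold above mock cultures of those days. As Pitpnm3 was chosen for treated above mock, a smaller gap to treated cultures is built in.

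Megf10 encodes an engulfment receptor with epidermal growth factor-like repeats, known from astrocytes and muscle satellite cells. Tamoxifen cultures had 2.11 and 2.01 at day 4, against 0.16 and -1.16 in mock cultures. At day 7 they had 2.06 and 2.45, against 0.46 and -1.20 in mock cultures. The treated arrays were close together and the mock arrays were not, which gave Megf10 the largest SE of the 10 (0.56) beside differences of 2.56 (5.88-fold) and 2.62 (6.17-fold). Glomeruli were below background on all 4 arrays, and mock cultures were at least 45.6-fold above control glomeruli at day 4 and at least 49.9-fold above at day 7.

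**Figure D2:**
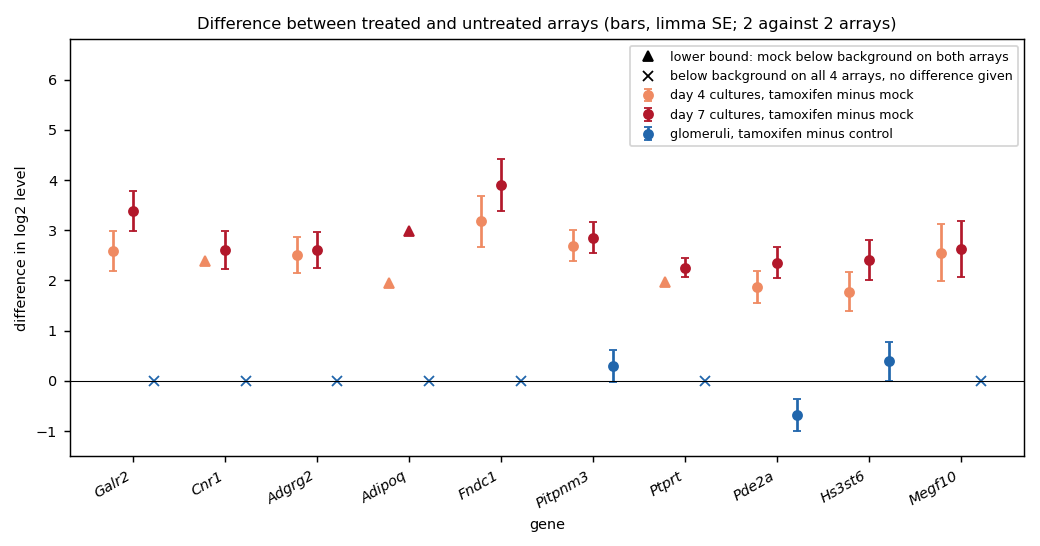
Difference in log2 level (vertical axis) for each of the 10 genes in day 4 cultures, day 7 cultures (tamoxifen minus mock) and glomeruli (tamoxifen minus control), with the limma standard error as bars, triangles for lower bounds and crosses where all 4 arrays were below background. Every culture value lies at 1.78 or above, while the 3 genes measured in glomeruli lie between -0.68 and 0.39.

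In glomeruli, 3 of the 10 genes were well above background on all 4 arrays (Pitpnm3, Pde2a and Hs3st6) and 7 were not on any, for the probe used per gene. The comparison of tamoxifen with control glomeruli therefore bears on these 3, and 0 of the 10 were called (limma with Benjamini-Hochberg adjustment over all genes tested), beside 2.62% of all genes, 399 of 15226. At an unadjusted p under 0.05 the count was also 0. With 7 genes below background these counts follow largely from the lack of signal, and nothing is read from them. With 2 arrays against 2, an exact permutation test of 1 gene cannot go below p = 0.333, and a p that misses the threshold does not show that the groups were alike.

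None of the 3 measured genes passed the test. Pitpnm3 differed by 0.30 (SE 0.31, limma adjusted p = 0.67) and Hs3st6 by 0.39 (SE 0.39, limma adjusted p = 0.66), in each case with both tamoxifen arrays above both control arrays (19.9% of all genes). Pde2a differed by -0.68 (SE 0.31, limma adjusted p = 0.31), with both tamoxifen arrays below both control arrays (28.1% of all genes), whereas in cultures both treated arrays were above both mock arrays. Endothelial markers, 10 of 10 well above background in both glomerular groups, had summed levels of 149 to 166 in tamoxifen glomeruli and 170 to 223 in control glomeruli. Podocyte markers summed to 307 to 429 with tamoxifen and 464 to 609 in controls, tubule markers to 79.7 to 125 with tamoxifen and 54.2 to 56.4 in controls, and red blood cell markers to 0.785 to 7.28 with tamoxifen and 39.2 to 87.4 in controls. The part of these shifts in the 3 differences was not tested.

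Across tissues the 10 genes fell into opposite arrangements, described here without a test. In 7 genes all 4 treated culture arrays were above all 4 glomerular arrays (39.7% of all genes), and these are the same 7 whose probe used here was below background in glomeruli; for Fndc1 a further probe was not. In the other 3, Pitpnm3, Pde2a and Hs3st6, all 4 treated culture arrays were below all 4 glomerular arrays (25.8% of all genes). For these 3, treated cultures lay between mock cultures and glomeruli. As the genes were chosen for treated above mock, that order is built in, and nothing is read from it. Endothelial markers summed to 149 to 223 in glomeruli and 5.70 to 8.84 in cultures. Tubule markers summed to 54.2 to 125 in glomeruli and 0.630 to 0.928 in cultures. Mesangial and mural markers were higher in cultures, as given above. The part of these cell types in the gaps between tissues was not tested. For Adgrg2, Megf10 and the Fndc1 probe used, the mock cultures were at least 10.7-fold above control glomeruli, whereas the Fndc1 probe that glomeruli also showed gave the overlapping values above. For Galr2, Cnr1, Adipoq and Ptprt the lower bound on any excess of mock cultures over control glomeruli was 1.45-fold at most, since glomeruli were below background and mock cultures near or below it.

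Both day 7 tamoxifen arrays were above both day 4 tamoxifen arrays in 7 of the 10 genes, against 20.4% of all genes, the exceptions being Cnr1, Pitpnm3 and Megf10. Both day 7 mock arrays were above both day 4 mock arrays in 1 of 10, Ptprt, against 18.3% of all genes. The treated day 7 over day 4 difference was 0.99 for Galr2, 0.96 for Adipoq and 0.80 for Fndc1, and -0.10 for Cnr1 and for Pitpnm3. The 10 genes were chosen for their rise in these treated cultures over mock, so nothing is read from the counts of 7 and 1. The comparisons of the 2 days rest on separate slides, and the difference between treated and mock time courses was not tested.

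The 2 mock arrays differed in the same direction in most of the 10 genes. Mock replicate 1 was above mock replicate 2 in 8 of the 10 genes at day 4 (45.7% of all genes), in 10 of 10 at day 7 (51.9%) and on both days in 8 (33.2%). The gap was widest for Megf10, at 1.32 at day 4 and 1.65 at day 7, and for Fndc1, at 1.14 and 1.46. Treated replicate 1 was above treated replicate 2 in 2 of 10 at day 4 (45.6% of all genes) and 4 of 10 at day 7 (45.7%). The 10 genes were chosen from these same arrays. Same-numbered mock arrays of day 4 and day 7 also deviated together across all genes (correlation 0.551). Nothing is therefore read from these counts. Foxc1 ran the other way in mock cultures, with 3.09 on replicate 1 and 4.21 on replicate 2 at day 4, and 2.62 on replicate 1 and 4.32 on replicate 2 at day 7. Foxc2 did not share that order at day 4, with 1.76 on mock replicate 1 and 1.45 on mock replicate 2. At day 7 it was nearly level, with 1.37 and 1.41. Whether the orders of Foxc1 and of the 10 genes are linked was not tested. In treated cultures Foxc1 had -5.78 on replicate 1 and -1.74 on replicate 2 at day 4, and -8.21 on replicate 1 and -3.26 on replicate 2 at day 7, with replicate 1 below background on both days.

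These gaps set how far a fold rests on 1 array. Without mock replicate 2 of day 7 the difference of Megf10 was 1.80, and without mock replicate 1 it was 3.45. For Fndc1 the same omissions gave 3.18 and 4.64, and for Adgrg2 2.00 and 3.22. At day 4, Megf10 had 1.90 without mock replicate 2 and 3.22 without mock replicate 1, and Fndc1 had 2.61 and 3.74. All 10 genes stayed higher with tamoxifen on both days, whichever of the 12 arrays was left out. With both treated arrays above both mock arrays, leaving out 1 array could not change that, so nothing is read from it. Mesangial and mural markers, 10 of 10 well above background in all culture groups, summed to 533 to 566 with tamoxifen and 441 to 457 with mock at day 4, and to 515.0 to 515.4 with tamoxifen and 435 to 500 with mock at day 7. Member by member this list was mixed: at day 7 its median difference was -0.12, with both treated arrays above both mock arrays in 4 genes and below in 2, and Rgs5 was called lower. Parietal epithelial markers, 4 or 5 of 7 well above background on both arrays of a culture group, summed to 5.84 to 5.90 with tamoxifen and 4.56 to 4.97 with mock at day 4, and to 4.83 to 5.27 with tamoxifen and 3.84 to 4.16 with mock at day 7. Krt8 was below background in all culture groups and Krt18 in the mock groups, and Cldn1 was called lower at day 7. The part of these markers in the differences of the 10 genes was not tested.

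**Figure D3:**
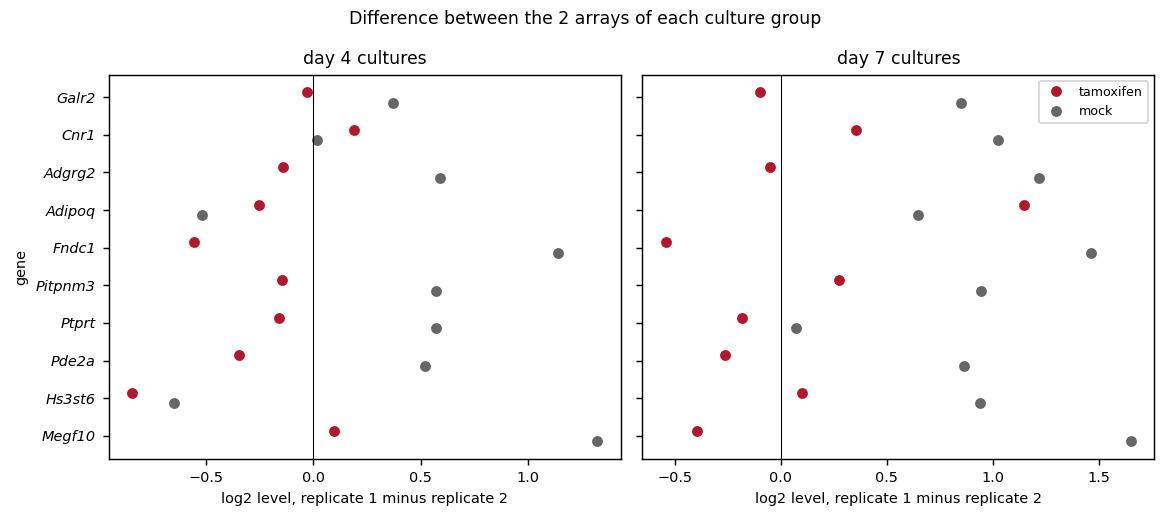
Log2 level of replicate 1 minus replicate 2 (horizontal axis) for the 10 genes in day 4 and day 7 cultures, with tamoxifen in red and mock in grey. Mock values lie right of 0 in 8 of 10 genes at day 4 and in all 10 at day 7, out to 1.65 for Megf10, while treated values lie on both sides.

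Genes of the same families and pathways were examined with the 12 lists that follow. Of 140 listed genes, 114 were tested. The lists were chosen with earlier results of these data known, so nothing is read from the shares called. In glomeruli 2 were called (1.75%, against 2.62% of all genes), at day 4 1 was called (0.877%, against 0.21%) and at day 7 4 were called (3.51%, against 0.972%), all by limma with Benjamini-Hochberg adjustment over all genes. At an unadjusted p under 0.05 there were 19, 17 and 25 in these comparisons, against 18.3%, 10.9% and 12.2% of all genes. The median difference of the 114 was -0.05 in glomeruli, 0.00 at day 4 and -0.01 at day 7, beside all-gene medians of -0.05, 0.02 and 0.00. With normexp background correction in place of the processed signal, the day 4 call of Megf6 and the day 7 call of Mertk were kept of the 7 calls described next, and the other 5 were lost.

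Partners and relatives of the receptors came from 3 lists. Of the galanin system 2 genes were tested and none was called. Gal, the precursor of galanin itself, had -2.08 and -2.53 in tamoxifen cultures at day 4, against -2.35 and -3.16 in mock cultures, which overlap. Of the endocannabinoid system 11 were tested, 0 were called in glomeruli or at day 4, and at day 7 2 fell. Dagla, which makes the endocannabinoid 2-arachidonoylglycerol, had -2.22 and -2.68 with tamoxifen at day 7, against -1.11 and -1.26 with mock, a difference of -1.27 (SE 0.22, limma adjusted p = 0.047). Faah, which breaks down anandamide, was below background on both tamoxifen arrays and at -4.58 and -4.71 on the mock arrays of day 7. It was at least 2.30-fold lower with tamoxifen there (limma adjusted p = 0.044). At day 4 Faah was below background on both tamoxifen and both mock arrays. Both calls are close to the threshold: leaving out 1 array at a time ended the Faah call in 11 of 12 fits and the Dagla call in 10 of 12, with adjusted p up to 0.21 and 0.20. Of the adhesion receptors of group G 3 were tested and none was called. In all 3 both treated arrays were below both mock arrays at day 4 (21.4% of all genes). Adgrg1 differed by -0.42 at day 4 and -0.65 at day 7, Adgrg3 by -0.54 and -0.16, and Adgrg6 by -0.44 and -0.85.

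For the secreted proteins, fat cell genes were examined beside Adipoq. Of 17 listed 13 were tested and 0 were called in any comparison (unadjusted p under 0.05 in 2 in glomeruli, 3 at day 4 and 4 at day 7). Of the 17, between 10 and 12 were well above background on both arrays of each culture group, while Lep, Plin1, Cfd and Cidec were below it on both arrays of every group. Picked after their values were seen, Retn, which encodes the hormone resistin, differed by 2.23 at day 4 and 2.21 at day 7 (limma adjusted p = 0.36 and 0.31), Lpl by 0.93 and 1.11, and Dgat2 by 0.86 and 0.75. Picked in the same way, Pparg differed by -0.97 and -0.92 (limma adjusted p = 0.17 and 0.15) and Cd36 by -0.62 and -1.31. Both treated arrays were above both mock arrays in 4 of the 13 at day 4 and below in 5. At day 7 they were above in 3 and below in 5. The median difference of the 13 was -0.07 at day 4 and -0.02 at day 7. The summed level of the list was 85.4 to 85.8 with tamoxifen and 80.1 to 83.4 with mock at day 4, and 88.3 to 92.3 with tamoxifen and 81.3 to 85.2 with mock at day 7. Cebpd, a transcription factor of fat cell differentiation, differed by -0.07 at day 4 and -0.02 at day 7. None of 5 adiponectin receptor and binding genes was called, and Adipor2 differed by -0.01 and 0.00 at day 4 and day 7. None of 8 genes of the Fndc family was called, and Fndc3b differed by 0.02 at day 4 and 0.00 at day 7.

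For the enzymes and the lipid transfer family, 1 relative was called, and in glomeruli. Of 20 cyclic nucleotide phosphodiesterases, Pde5a, which breaks down cyclic GMP, fell in glomeruli, with -1.99 and -2.28 with tamoxifen and -0.88 and -1.15 in controls (difference -1.12, SE 0.15, limma adjusted p = 0.022). Without control glomeruli replicate 1 its adjusted p was 0.071. Pde5a differed by -0.24 at day 4 and by 0.28 at day 7, neither called. None of 13 heparan sulfate modifying enzymes was called. Sulf1, a sulfatase of heparan sulfate, had 6.32 and 6.19 with tamoxifen at day 4, against 5.71 and 5.20 with mock, and differed by 0.80 at day 4 and 0.74 at day 7 (limma adjusted p = 0.44 on both days). None of 3 R2B phosphatases and none of 5 phosphatidylinositol transfer proteins was called: Ptpru differed by -0.43 and -0.24 and Pitpna by -0.02 and -0.08 at day 4 and day 7.

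Of 16 tested Megf and engulfment genes, 1 was called at day 4 (6.25%, against 0.21% of all genes) and 2 at day 7 (12.5%, against 0.972%), in opposite directions. These shares rest on 1 or 2 genes of a list chosen with earlier results known, and nothing is read from them. Megf6, a further protein with epidermal growth factor-like repeats, rose with tamoxifen, with -4.23 and -4.70 at day 4 and -5.07 and -5.33 at day 7, while all 4 mock arrays were below background. It was at least 2.30-fold higher at day 4 and at least 1.46-fold higher at day 7 (limma adjusted p = 0.016 and 0.022). Each of the 2 calls was lost in 3 of 12 leave-one-out fits, with adjusted p up to 0.16 and 0.15. Mertk, a receptor tyrosine kinase that takes up dying cells, had -1.09 and -1.0 with tamoxifen at day 7, against 0.57 and 1.60 with mock, a fall of 2.13 on the log2 scale (difference -2.13, SE 0.32, limma adjusted p = 0.032). The call was lost in 9 of 12 leave-one-out fits, with adjusted p up to 0.17. At day 4 Mertk differed by -2.03 (limma adjusted p = 0.063), and the other 14 of 16 tested genes of the list were called on neither day.

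Because tamoxifen acts on estrogen receptors, 15 estrogen response genes were tested. None was called in cultures (unadjusted p under 0.05 in 1 at day 4 and 1 at day 7). Pdzk1, a scaffold protein of kidney tubules that responds to estrogen in human breast cells, rose in glomeruli, with 5.34 and 4.28 with tamoxifen and 2.88 and 3.34 in controls (difference 1.70, SE 0.33, limma adjusted p = 0.046). That call held in 1 of 12 leave-one-out fits, and the tubule markers of the same arrays were higher with tamoxifen as given above; their part in it was not tested. Neuronal markers, examined because galanin and cannabinoid receptors are best known from neurons, had 0 of 8 called in cultures. Of the 8, 5 or 6 were well above background on both arrays of each culture group, while Rbfox3 and Stmn2 were below it in all of them. Their summed level was 5.22 to 5.84 with tamoxifen and 5.40 to 5.62 with mock at day 4, and 5.62 to 6.42 with tamoxifen and 6.22 to 6.74 with mock at day 7.

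**Figure D4:**
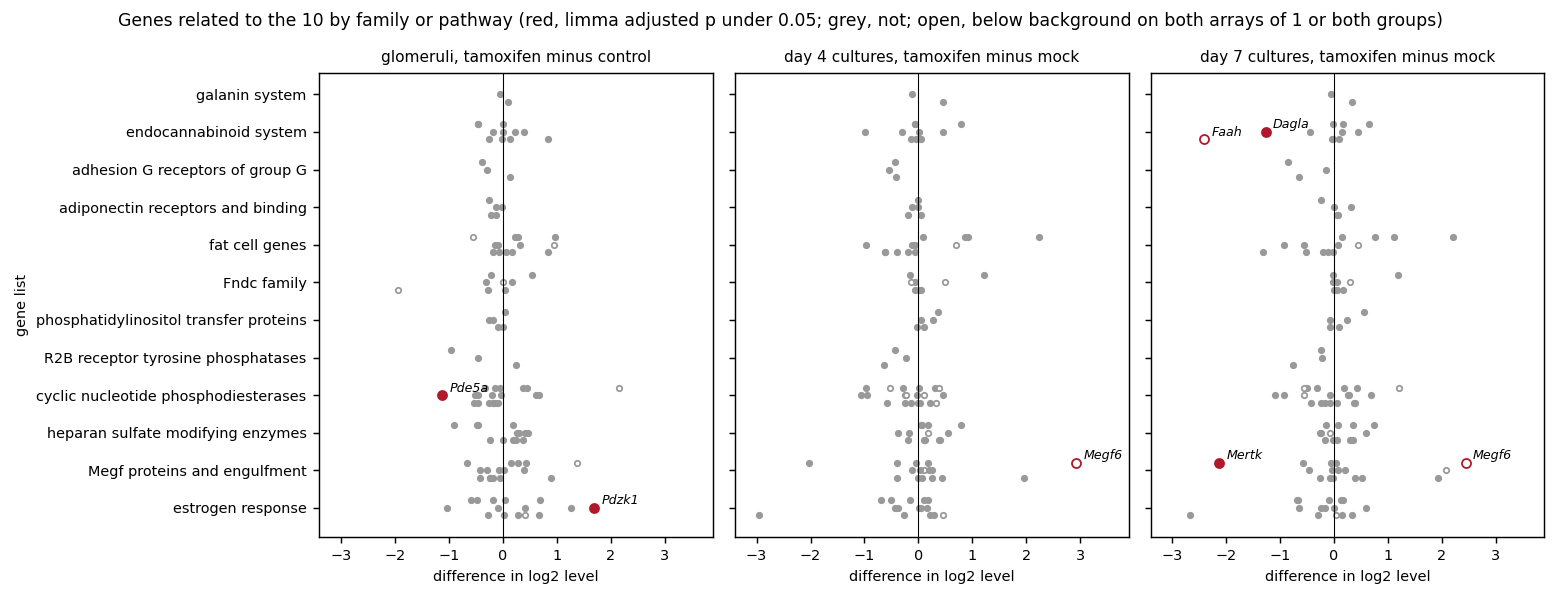
Difference in log2 level (horizontal axis) of the 114 tested relatives by gene list (vertical axis) in glomeruli (tamoxifen minus control) and in day 4 and day 7 cultures (tamoxifen minus mock), with red for a limma adjusted p under 0.05 and open symbols for measured differences of genes below background on both arrays of 1 or both groups. Most points lie near 0, and the called genes are Pde5a and Pdzk1 in glomeruli, Megf6 on both days, and Mertk, Faah and Dagla at day 7.

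The genes outside the 10 whose profile over the 12 arrays was most like the mean standardised profile of the 10 were Lif (Pearson r = 0.98), Lrrc55 (0.98), Tmc6 (0.98), Gng8 (0.97) and St6galnac5 (0.97). These correlations describe 12 arrays that share 3 slides and 6 groups, and were picked from 15226 genes. Lif, a cytokine of the interleukin 6 family, had -3.19 and -3.49 in tamoxifen cultures at day 4 and -3.13 and -3.10 at day 7, and was below background on all 4 mock and all 4 glomerular arrays. Tmc6 stayed well above background everywhere, with 2.69 and 2.77 with tamoxifen at day 4, against 2.27 and 2.08 with mock. Among the 10 themselves, the correlation with that mean profile was 0.98 for Adipoq, 0.94 for Galr2, 0.93 for Cnr1, 0.92 for Ptprt and 0.84 for Fndc1. Adgrg2 and Megf10 had 0.76 each, while Pitpnm3 had 0.20, Pde2a -0.13 and Hs3st6 -0.28, the last 3 being the genes well above background in glomeruli. Each of the 10 is part of that mean and was chosen for its rise in cultures, so high values here are partly built in.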

How the data were processed

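Total RNA of 4 glomerular and 8 culture samples was labelled with Cy3 and hybridised to single-colour Agilent arrays, per the labels' protocols. The deposited scanner files hold intensity values per spot with flags for spots above background (1 or 0), and their headers name Agilent Feature Extraction 11.5.1.1 as the software. A further deposited table holds the authors' own log2 values, whose columns correlated at 1 with the scanner values (column medians -4.14 to -3.82); how that table was centred is not given in the sources used here.

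The processed signal, already background-corrected by the scanner software, was divided by each array's 75th percentile and put on the log2 scale. Each array lost its control spots and 83 to 134 outlier spots, saturation was flagged for 0 spots, and repeated spots of a probe were averaged. Of 39429 probes, 26581 matched 1 RefSeq symbol by accession without version (GRCm38.p6 table) and 12848 matched none. A probe was kept if 2 or more of the 12 arrays showed it well above background, and the probe with the highest mean stood for a gene, which left 15226 genes. Of the 13 probes of the 10 genes 12 passed that filter, at least 1 for each gene (the second Ptprt probe did not), and as they could pass through the treated cultures alone, no count of passing genes is used as support.

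One limma 3.58.1 fit (R 4.3.3, lmFit and eBayes, 6 residual and 1.87 prior degrees of freedom) covered 6 group means, with no block, Benjamini-Hochberg adjustment over all genes and a threshold of 0.05. Where no array of a group was well above background, a fold is a bound against, per array, the higher of the lowest signal that was well above background and the probe's own. Precision is limited by how few arrays there are. The script was tested on simulated data. The members and all gene lists were chosen with earlier results of these data known. Named are the 10 genes, the called genes of each list (up to 3 per list and comparison), otherwise the gene of a list with the highest mean, Foxc1, Foxc2 and the 5 genes of most similar profile. Alternatives were normexp (offset 50), median and quantile scaling, the deposited value table, other filters and probe rules, a replicate block, fewer arrays in the fit, eBayes trend and robust options and leaving out each array. The files hold no mean signal column, so normexp used the median signal and median local background (24.5 to 34.0 units).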

Additional observations from a re-analysis of the deposited data

Results flagged for a closer look

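Pde2a was higher with tamoxifen on both culture days but lower in tamoxifen glomeruli. Its difference was 1.87 at day 4 and 2.36 at day 7, with both treated arrays above both mock arrays, and -0.68 in glomeruli, with both tamoxifen arrays below both control arrays. Sulf1, a relative of Hs3st6 in the heparan sulfate list, showed the same opposition, with 0.80 at day 4, 0.74 at day 7 and -0.48 in glomeruli. For Sulf1 too, both treated arrays lay above both mock arrays on each day and both tamoxifen arrays below both control arrays in glomeruli. Neither glomerular difference was called (limma adjusted p = 0.31 for Pde2a and 0.5 for Sulf1). In glomeruli 28.1% of all genes had both tamoxifen arrays below both control arrays, and Pde2a was chosen for its rise in cultures. The difference between glomeruli and cultures was not tested, and tissue and slide cannot be told apart.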

How the results depend on the processing

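All 10 genes stayed higher with tamoxifen on both days under each of 22 alternatives. They were chosen for that rise, and leaving out 1 array could not change its direction, so nothing is read from it. With normexp their differences were smaller, 1.51 to 2.43 at day 4 and 0.73 to 3.14 at day 7, the lowest being Ptprt (0.73), Cnr1 (0.77), Adipoq (0.90) and Pitpnm3 (1.00), genes near or below background in mock cultures; the cause was not tested. With the mean over probes Fndc1 had 2.01 at day 4 and 2.00 at day 7. In glomeruli Pitpnm3, Pde2a and Hs3st6 kept their direction and stayed uncalled in 22 alternatives, with ranges of 0.17 to 0.43, -0.89 to -0.47 and 0.21 to 0.57. Counts of calls were less stable. The main counts were 399 genes in glomeruli, 32 at day 4 and 148 at day 7, with 2, 1 and 4 relatives. Normexp gave 5, 5041 and 44 genes and 0, 33 and 1 relatives, and moved the median of all genes at day 4 to 0.19. Of the calls named in the text, normexp ended those of Foxc2, Pde5a and Pdzk1 in glomeruli and of Faah, Dagla and Megf6 at day 7. Quantile normalization gave 51 genes at day 4. Without a filter on dim probes there were 257 genes in glomeruli and 2 relatives on each day. With trend and robust options there were 82 genes and 2 relatives at day 4. With only the arrays of the comparison there were 0 genes and 0 relatives in glomeruli, and 76 genes and 1 relative at day 7, and of the named calls those of Foxc2 at day 4 and day 7 and of Megf6 on both days were kept. Leaving out 1 array at a time gave 84 to 482 genes in glomeruli, 7 to 79 at day 4 and 5 to 234 at day 7, with 0 to 4, 0 to 2 and 0 to 3 relatives, 0 to 0 of the 10 genes called in glomeruli and 10 to 10 higher in cultures. With the replicate block, which takes same-numbered arrays as pairs, there were 948, 238 and 660 genes and 4, 4 and 11 relatives; same-numbered arrays deviated together (correlations of 0.433 to 0.551 between culture groups and 0.21 in glomeruli), but with 2 numbers per group this is a hint from the data and not the design. Under it Foxc1 was called at day 4 (adjusted p 0.038) and day 7 (0.015), Mertk (0.04) and Dagla (0.038) at day 4, Adgrg1 at day 7 (0.042) and Megf6 in glomeruli (0.048), and Pdzk1 in glomeruli was not (0.053). The share of calls that were higher with tamoxifen was 65.9% in glomeruli, 43.8% at day 4 and 46.6% at day 7, and with median scaling 76.9%, 58.3% and 61.6%; normexp gave 93.7% at day 4. Slide as a block was not run, because each group lies on 1 slide. Faint signal limits Galr2, Cnr1, Adipoq, Ptprt and Pitpnm3 most, since their mock levels are near background.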
